A study of Mus musculus with 24 samples.

Results

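The 10 genes described here encode structural proteins of airway cartilage, namely *Col2a1*, *Col11a2*, *Col9a1*, *Col9a2*, *Col9a3*, *Acan*, *Hapln1*, *Comp*, *Matn3* and *Matn1*. They were taken by symbol, with no threshold on their values, from the 23420 genes listed in each table, and all 10 were present. None of them passed the test for a difference between mutant and control lungs in any of the 4 comparisons available. The levels differed widely among the members: *Hapln1* had 9493 reads over 24 lungs and *Matn1* had 6.

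Cartilage around the trachea and main bronchi holds the airway open. Chondrocytes secrete a network of type II collagen fibrils with type XI and type IX collagens in or on them, and fill it with aggrecan, a large proteoglycan that binds hyaluronan through link protein and draws in water. The transcription factor SOX9 drives many of these genes in chondrocytes and is also made by distal tip cells of the lung epithelium, so that a Cre recombinase placed at the *Sox9* locus can act in both lineages.

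The study asked how the receptor gene *Ror2* and the planar cell polarity gene *Vangl2* act in alveolar formation. Whole left lung lobes were sequenced at postnatal day 2 (P2) and postnatal day 5 (P5), in 8 groups of 3 lungs. The mutants were Sox9Cre; Vangl2f/f and Sox9Cre; Ror2f/f, in which a Cre at the *Sox9* locus (Sox9Cre/+) recombines floxed *Vangl2* or *Ror2* alleles. Each mutant group at each age had its own control group, titled Control(Vangl1/2) or Control(Ror2) and labelled WT, and the labels do not say whether controls carried the Cre or a floxed allele. The groups were taken from the titles. The genotype entries of the P2 *Ror2* mutants name Vangl2f/f instead and those of the P5 *Vangl2* mutants name Ror2f/f, so that titles and genotype entries differ for these 6 lungs. The lobes were not sorted, and how much bronchial cartilage a lobe held was not recorded in the labels. In whole lobes, fewer cells of a type and less RNA per cell cannot be told apart.

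All values are gene counts scaled by a size factor per lung (normalized counts), and each of the 4 tables (*Vangl2* P2, *Vangl2* P5, *Ror2* P2 and *Ror2* P5) was scaled separately, so tests were made within a table. The lungs held 13823693 to 21546673 reads assigned to genes. In the *Ror2* P5 table, control 1 listed 100% of the genes seen elsewhere at 0 on each of chromosomes 6, 7, 8, 9 and X and 71.9% on chromosome 5. For that lung the genes of chromosomes 5 to 9 and X were set to missing, so *Acan* and *Comp* had 2 controls there. The targeted gene *Vangl2* was lower in all mutants than in all controls of its tables at P2 (276.9 ± 26.7 in controls, 212.7 ± 35.3 in mutants, SD, n = 3 each) and at P5 (324.9 ± 39.4 and 161 ± 11.7), with limma adjusted p-values of 0.241 and 0.0604. *Ror2* overlapped between groups at P2 (517 ± 65.1 in controls, 398 ± 70.8 in mutants) and P5 (497.0 ± 118 and 441 ± 79.7). In the lungs whose 2 labels differ, *Ror2* in the P5 *Vangl2* mutants was 388 ± 138 against 526 ± 74.4 in their controls, and *Vangl2* in the P2 *Ror2* mutants was 232 ± 21.7 against 269 ± 23.2.

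The levels of the members in control lungs formed a wide range (the plot of levels and spread). Levels between genes are given as normalized count per kb of exon, over the 12 control lungs. *Hapln1*, the link protein that fixes aggrecan to hyaluronan, was at a median of 69.1 per kb (35.6 to 108). *Col9a2*, the α2 chain of type IX collagen, was at 20.3 (14.7 to 28.9), and *Col2a1*, the sole chain of type II collagen, at 15.1 (10.8 to 43.5). These 3 genes stood above the others, and *Hapln1* exceeded *Col9a2* without overlap in the controls of all 4 tables, as *Col2a1* exceeded *Col11a2*. *Col9a2* and *Col2a1* were apart in only 1 table. *Col11a2* was at 4.68 per kb (3.03 to 7.52) and *Col9a3* at 3.01 (0.899 to 4.89). *Comp* was at 2.92 (0.834 to 9.25), *Matn3* at 2.58 (1.17 to 4.64) and *Acan* at 1.64 (0.124 to 5.0). From *Col11a2* to *Col9a1*, at 0.968 (0 to 3.63), neighbours in the order overlapped in at least 3 of the 4 tables. *Matn1* was last, with a median of 0 (0 to 0.587). *Acan*, which encodes the main proteoglycan of cartilage, was thus below its link protein in level per kb, and *Hapln1* alone made up 22.5% to 77.6% of the summed normalized count of the members in a lung (without *Acan* and *Comp* in the *Ror2* P5 table).

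The depth behind these levels set how precisely they were known. For 5 of the 9 testable members the reads were few: *Acan* had 274 reads in 23 lungs, *Comp* 271 in 23 lungs, and *Col9a3* 270, *Matn3* 182 and *Col9a1* 169 in 24 lungs. The coefficient of variation within groups (median of the 8 groups) was 30.8% for *Col9a3*, where counting error alone gives 30.9%. It was 36.8% against 35% for *Matn3* and 16.1% against 12.6% for *Col9a2*. It was 37% against 30% for *Comp* and 41.5% against 34.7% for *Acan*. In the median group these 5 genes varied little more than read sampling does, but single groups reached 75.2% for *Col9a2* (*Vangl2* P5 mutants), 68.7% for *Col9a3* and 106% for *Acan*. *Hapln1* varied by 40.6% where counting error gives 4.9%, and *Col2a1* by 30.5% where it gives 10.6%. For these most deeply counted members the spread between lungs exceeded counting error. It did so for *Col11a2* too, at 22.9% against 16.6%, and for *Col9a1*, a member with few reads. *Col9a1* varied by 52.4% against 30.2%, over the 5 groups with a mean of at least 3 reads.

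**Figure D1:**
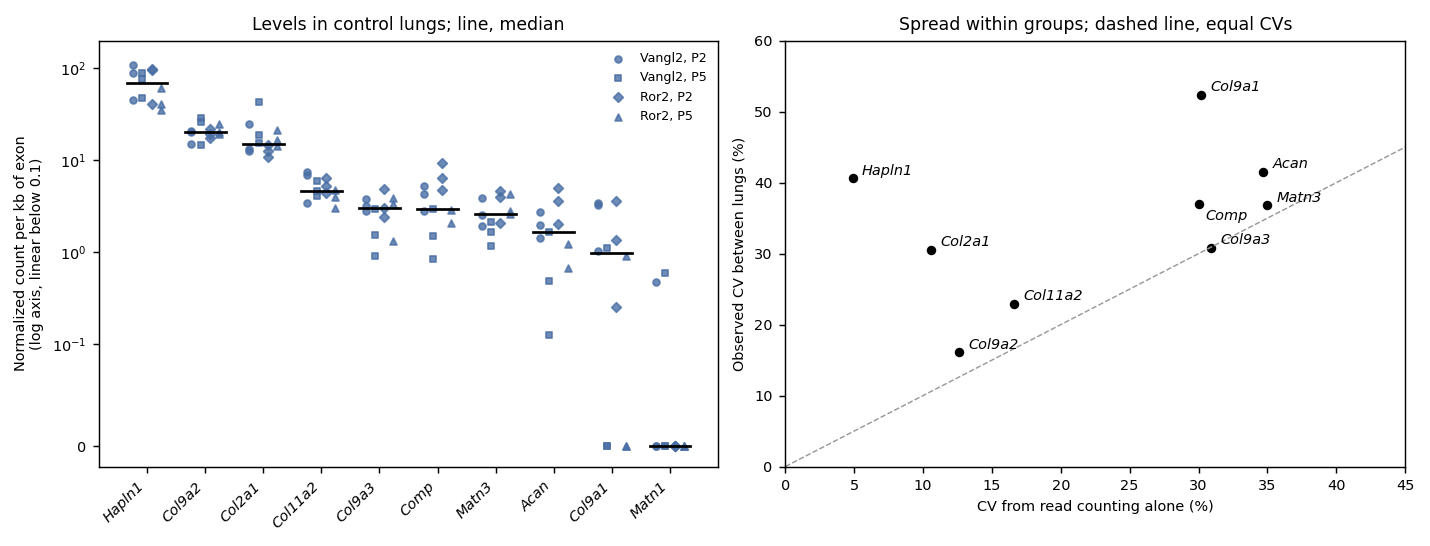
Left, normalized count per kb of exon of each member in the control lungs (log axis, linear below 0.1), with the median as a line, from 69.1 for *Hapln1* to 0 for *Matn1*. Right, the observed coefficient of variation within groups against the one that counting error gives, in percent, with equality dashed: *Hapln1*, *Col2a1* and *Col9a1* lie far above the line and *Col9a3* lies on it.

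In all, 9 members passed the filter on low values in each table and *Matn1* did not. By limma, 0 of 9 passed an adjusted p of 0.05 among *Vangl2* mutants at P2, where 3.59% of all genes tested did. The count of members was 0 of 9 at P5 (0.563% of all genes), 0 of 9 among *Ror2* mutants at P2 (0.0%) and 0 of 9 at P5 (0.122%). By edgeR on the whole reads recovered from the values it was also 0 of 9 in each, beside 3.67%, 0.396%, 0.0% and 0.14% of all genes. The shares over all genes rest on single lungs: with 1 lung left out, 1 to 2333, 0 to 54, 0 to 859 and 0 to 794 genes passed, in the same order. At an unadjusted limma p under 0.05 there were 0, 3, 2 and 1 members in that order, beside 22.5%, 18.8%, 19.3% and 18.4% of all genes. The members with all mutant lungs above all controls were *Col9a2* in the first comparison, *Col9a1*, *Col9a3* and *Comp* in the second, *Col11a2* in the third and *Col2a1* in the fourth, that is 1, 3, 1 and 1 of 9. Of all genes, 14.6%, 13.2%, 13.4% and 15.6% were so placed. Only *Acan* and *Matn3* in *Ror2* mutants at P2 had all mutants below all controls, that is 0, 0, 2 and 0 of 9, beside 14.9%, 12.5%, 12.2% and 14.3% of all genes. The median log2 fold change (mutant over control) of the 9 members was 0.42, 0.63, -0.10 and -0.01, with medians of all genes between -0.006 and 0.004. The first of these was 0.20 to 0.52 with 1 lung left out, lowest without mutant 2.

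**Figure D2:**
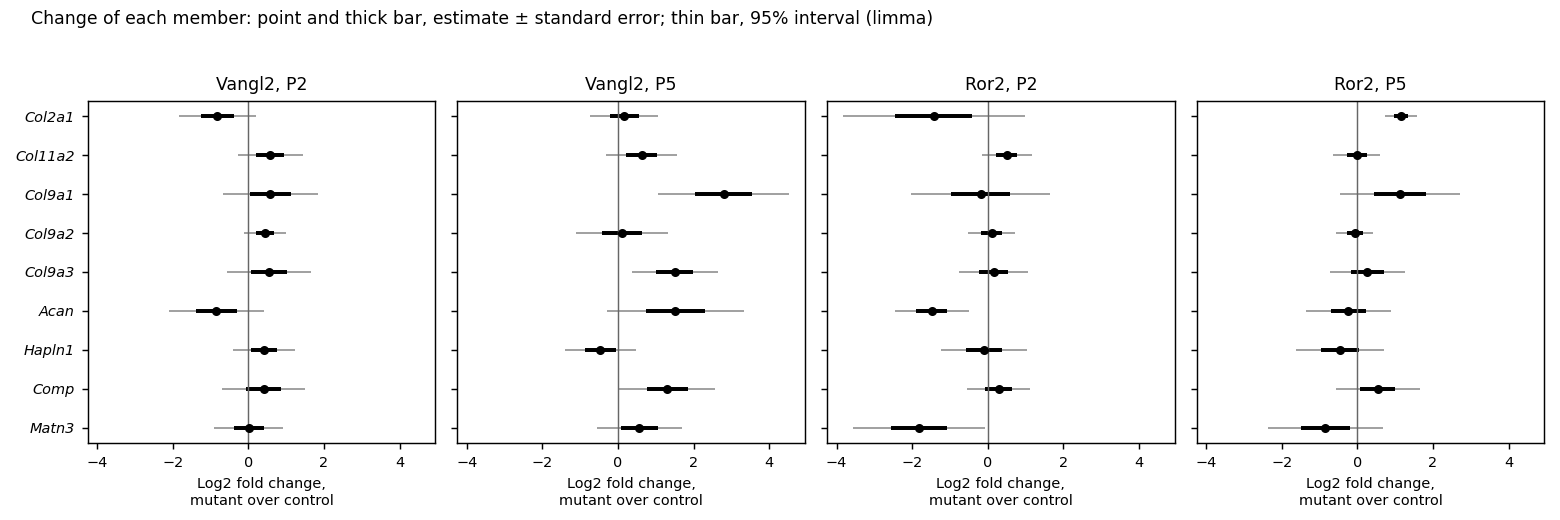
Log2 fold change of mutant over control for the 9 members tested, one panel per comparison, with the standard error (thick bar) and the 95% interval (thin bar). Most intervals hold 0, and those that do not are *Col9a1*, *Col9a3* and *Comp* in *Vangl2* mutants at P5, *Acan* and *Matn3* in *Ror2* mutants at P2 and *Col2a1* in *Ror2* mutants at P5.

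Of 36 member and comparison pairs tested, the 95% interval of the log2 fold change held 0 in 30 and reached past 1 or -1 in 31. Leaving out 1 lung moved 31 of the 36 log2 fold changes by over 1.5 times in at least 1 fit. A 2-fold difference was thus within the interval for most members, and a call missed here is not a sign of equal levels. The 5 pairs whose whole interval lay within 1 of 0 included *Col9a2* in *Ror2* mutants at P5 (-0.07, interval -0.56 to 0.42) and *Col11a2* there (-0.01, interval -0.64 to 0.61).

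The fibril collagens come first. *Col2a1* encodes the chain of which type II collagen, the bulk collagen of cartilage, is made. In the *Ror2* P5 table its normalized counts were 109, 85.35 and 72.4 in the controls and 188, 209 and 194 in the mutants. All 3 mutants were above all 3 controls, and the mutant lungs lay close together. The means were 89.0 ± 18.6 and 197 ± 10.7 (SD, n = 3 each), a ratio of 2.21. The log2 fold change was 1.16 (SE 0.18, 95% interval 0.73 to 1.58), with an unadjusted p of 0.000256 and an adjusted p of 0.0776 by limma, which misses the threshold of 0.05. The adjusted p was 0.0742 by edgeR, and between 0.037 and 0.438 over the alternatives run, with only the fit without mutant 3 below the threshold. An exact permutation test cannot give less than 0.1 with 3 lungs a group, and gave 0.1.

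Other measures differed between the same lungs. Sums of marker genes in the *Ror2* P5 table leave out genes of the missing chromosomes. In these mutants the summed normalized count of 4 of the 8 club and ciliated cell genes was 115900 to 221600, against 64280 to 78460 in the controls, and that of 6 of the 9 cardiac muscle genes was 1894 to 15100 against 1075 to 5117. Of the 13 skeletal muscle genes, 8 without *Ckm* summed to 17.97 to 31.49 against 42.91 to 49.2. The female-specific transcript *Xist* was low and the Y-linked *Ddx3y* high in all 3 mutants and in control 3, while control 2 was the reverse. In control 1 the values of X genes are missing, so *Xist* could not be read. *Ddx3y* was at 0 there, but whether Y genes were lost too was not checked, so the sex of that lung is not known. Control 3 had the lowest *Col2a1* of the controls. *Sox9* itself, the locus that carries the Cre, was at 83.0 to 155 in controls and 40.7 to 53.9 in mutants (log2 fold change -1.17, SE 0.27, limma adjusted p = 0.124). *Sox9* was also lower in all mutants than in all controls at *Ror2* P2 (127 to 153 in controls, 77.8 to 104 in mutants). The same held at *Vangl2* P5 (105 to 153 and 81.3 to 99.9), while at *Vangl2* P2 the groups overlapped (145 to 190 and 154 to 288). The part of each of these measures in the *Col2a1* values was not tested.

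*Col2a1* did not have this order in the other tables. In the *Ror2* P2 table it was 63.9, 55.1 and 75.5 in controls and 34.9, 94.8 and 3.15 in mutants. Mutant 3, with 3 reads, was the lowest lung of all and mutant 2 the highest of its table. The log2 fold change was -1.43 (SE 1.02, limma adjusted p = 0.452) with mutant 3 and -0.15 without it. In *Vangl2* mutants it was 45.5, 79.7 and 26.5 against 67.4, 64.5 and 125.5 at P2 (-0.82, SE 0.44, adjusted p = 0.312). At P5 it was 137.5, 109 and 161 against 78.5, 222 and 96.7 (0.17, adjusted p = 0.858). Both of these groups overlapped with their controls. The P5 fold change minus the P2 fold change in *Ror2* mutants was 2.58 (SE 1.15, unadjusted p = 0.0452, adjusted p = 0.513 by limma), so the ages were not shown to differ.

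*Col11a2* encodes the α2 chain of type XI collagen, the minor fibril collagen that sits in the core of type II fibrils. In the *Ror2* P2 table it was at 27.9, 33.1 and 40.1 in controls and 42.8, 40.8 and 62.0 in mutants. Every mutant was above every control, by less than 1 normalized count between the nearest lungs. The log2 fold change was 0.50 (SE 0.28, interval -0.16 to 1.17, limma adjusted p = 0.348). In *Vangl2* mutants it was 0.58 at P2 (adjusted p = 0.395) and 0.63 at P5 (adjusted p = 0.449), with overlap in both. The P5 value came largely from mutant 3 at 83.1, where the other 2 mutants had 34.8 and 36.9 and the controls 25.9 to 37.3, and was 0.23 without that lung.

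**Figure D3:**
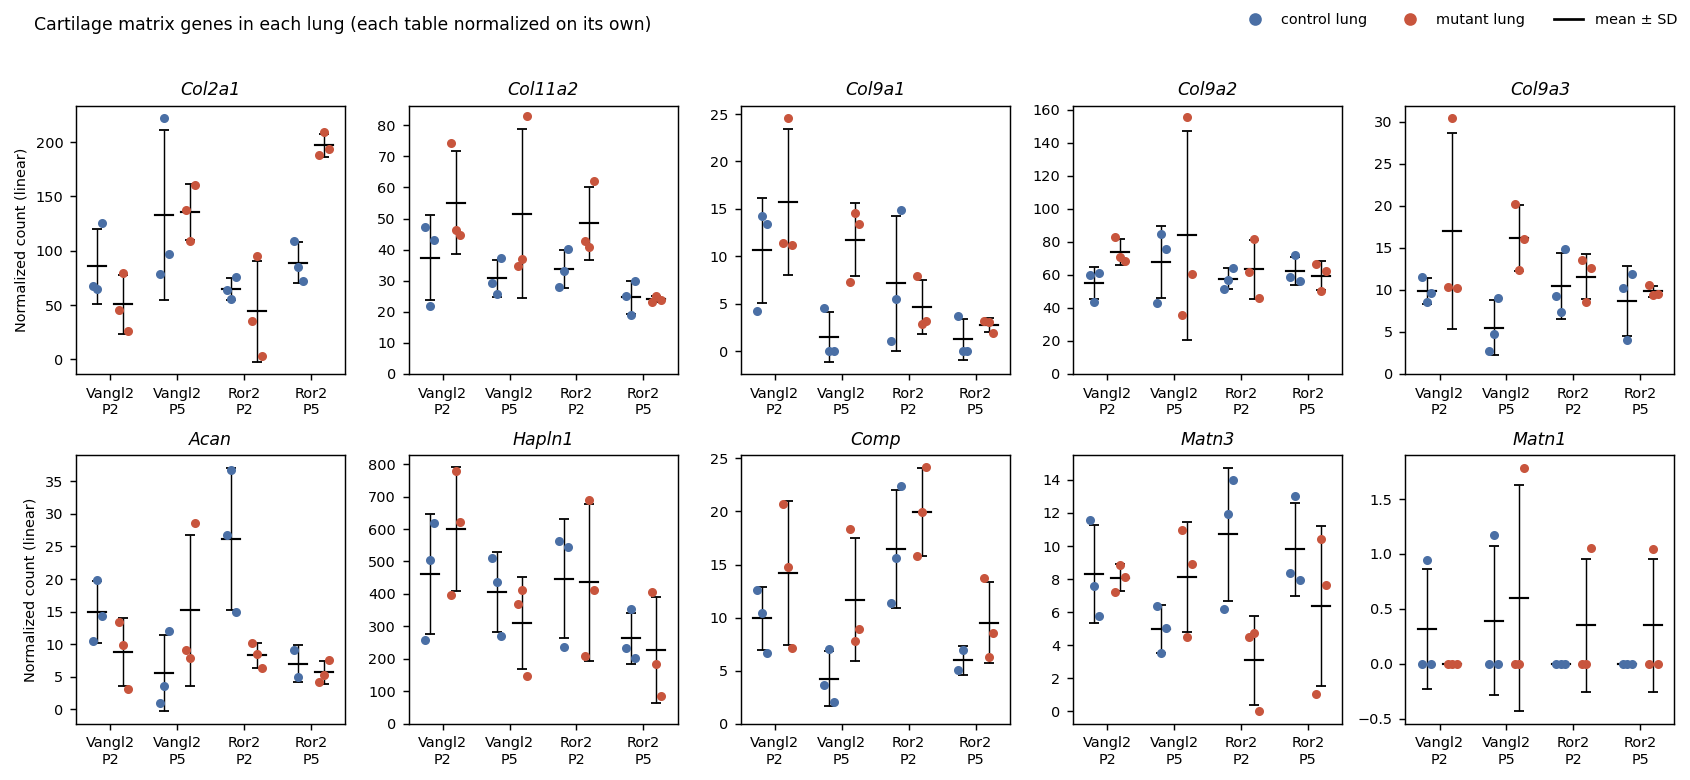
Normalized count of each of the 10 members in each lung (points), by group along the horizontal axis, with the mean and SD of each group. Groups of a table overlap in most panels, *Col2a1* in *Ror2* mutants at P5 stands above its controls, and *Matn1* is at or near 0 throughout.

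The type IX collagen chains cross-link to the surface of type II fibrils, and 1 molecule holds all 3 chains. Their genes did not share a level, since *Col9a2* was at 20.3 per kb in control lungs and *Col9a1*, which encodes the α1 chain, at 0.968. *Col9a1* in the *Vangl2* P5 table was at 4.56, 0 and 0 in controls and 7.33, 14.55 and 13.4 in mutants. Every mutant was above every control, and 2 controls had no read. The log2 fold change was 2.80 (SE 0.75, interval 1.06 to 4.53) with an unadjusted p of 0.00582 and an adjusted p of 0.122 by limma. It rests on the pseudocount of 1, since the control mean was 1.52 ± 2.63 (SD, n = 3), below the 3 counts that set the limit of a 0. In the other tables *Col9a1* overlapped, at 4.21 to 14.2 in controls and 11.2 to 24.6 in mutants of the *Vangl2* P2 table, 1.03 to 14.9 and 2.84 to 7.89 at *Ror2* P2, and 0 to 3.73 and 1.91 to 3.17 at *Ror2* P5.

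*Col9a3*, the α3 chain, was at 2.74, 4.70 and 9.07 in controls and 20.2, 12.3 and 16.1 in mutants of the same *Vangl2* P5 table. The groups did not overlap here either, with a log2 fold change of 1.496 (SE 0.49, interval 0.36 to 2.63, unadjusted p = 0.0162, adjusted p = 0.172 by limma). Of its exon bases, 6.07% overlap the gene *Tcfl5* on the other strand, and since the strandedness of the counting is not given, reads there cannot be told apart. *Col9a2* in that table was at 42.9, 84.6 and 75.6 against 35.7, 155.6 and 60.8, with the groups overlapping and a log2 fold change of 0.10 (adjusted p = 0.942). The 3 chains of 1 molecule therefore differed in their values at P5, and whether their fold changes differed from each other was not tested.

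*Col9a2* was the sole member apart in the *Vangl2* P2 table, at 60.03, 43.6 and 61.3 in controls and 82.7, 70.8 and 68.2 in mutants. Its log2 fold change was 0.43 (SE 0.24, interval -0.13 to 0.99, limma adjusted p = 0.332). *Col9a3* overlapped there, and in both *Ror2* tables *Col9a2* and *Col9a3* had log2 fold changes from -0.07 to 0.27.

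Aggrecan carries the chondroitin sulfate chains of cartilage. *Acan* in the *Ror2* P2 table was at 26.8, 36.8 and 14.9 in controls and 10.1, 8.53 and 6.30 in mutants. All mutants were below all controls. The means were 26.2 ± 10.9 and 8.33 ± 1.93 (SD, n = 3 each), and the log2 fold change was -1.48 (SE 0.41, interval -2.45 to -0.51, unadjusted p = 0.00851, adjusted p = 0.203 by limma). In the *Vangl2* P2 table the values were 10.5, 19.9 and 14.4 against 13.4, 9.83 and 3.06, with overlap and a log2 fold change of -0.85 (SE 0.54, adjusted p = 0.392), or -0.31 without mutant 3. In the *Vangl2* P5 table they were 0.912, 3.53 and 12.1 against 9.16, 7.83 and 28.6, again with overlap (1.52, SE 0.79, adjusted p = 0.345), and 0.97 without mutant 3, the highest lung. The P5 minus P2 difference in *Vangl2* mutants was 2.37 (SE 1.02, adjusted p = 0.577 by limma). In the *Ror2* P5 table, with 2 controls, *Acan* was at 9.04 and 4.96 against 4.23, 5.22 and 7.63.

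*Hapln1*, the link protein gene, was the most deeply counted member, with 91 to 792 reads a lung, and its groups overlapped in every table. In the *Ror2* P2 table it was at 562, 235 and 545.0 in controls and 207, 688 and 412 in mutants, and in the *Ror2* P5 table at 232, 352 and 203 in controls and 406, 185 and 86.8 in mutants. Lungs of 1 group differed by more than the group means did. In *Vangl2* mutants it was at 398, 779 and 620.3 against 258.0, 505.5 and 619 at P2 and at 369, 413 and 148 against 511, 437 and 270.1 at P5. The log2 fold changes were 0.42, -0.47, -0.10 and -0.45 for *Vangl2* P2, *Vangl2* P5, *Ror2* P2 and *Ror2* P5, with limma adjusted p-values from 0.52 to 0.927. The first was 0.046 without control 1 and the second -0.006 without mutant 3.

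*Comp* encodes a pentameric glycoprotein that binds collagen fibrils in cartilage and tendon. In the *Vangl2* P5 table it was at 3.65, 7.05 and 2.02 in controls and 18.3, 7.83 and 8.94 in mutants. The groups were apart by less than 1 normalized count. Its log2 fold change was 1.30 (SE 0.55, interval 0.04 to 2.57, unadjusted p = 0.045, adjusted p = 0.254 by limma). It was 0.40 in *Vangl2* mutants at P2 and 0.29 and 0.55 in *Ror2* mutants at P2 and P5, with overlap in each.

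The 3 members that stood above their controls in the *Vangl2* P5 table did so beside other genes. The summed club and ciliated cell genes there were 186300 to 234100 in mutants and 58810 to 112800 in controls, and 6 airway basal cell genes summed to 544.4 to 1653 against 117.5 to 290.2. Mutant 3 held the highest basal sum and a skeletal muscle sum of 5156, where the other 2 mutants had 161.2 and 182.4 and the controls 105.8 to 216.7. That lung was also the highest of its table for *Acan* and *Col11a2*. Without it the log2 fold changes were 2.68 for *Col9a1*, 1.49 for *Col9a3* and 1.43 for *Comp*. With the replicate number as a block, since the numbers pair the lungs of this table, 1558 of 17410 genes (8.95%) passed in place of 98, and 0 of 9 members did, with adjusted p-values of 0.0668 for *Col9a1*, 0.0997 for *Acan*, 0.103 for *Col9a3* and 0.167 for *Comp*. *Xist* was high in all lungs of this table but mutant 1. The part of these in the members' values was not tested.

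**Figure D4:**
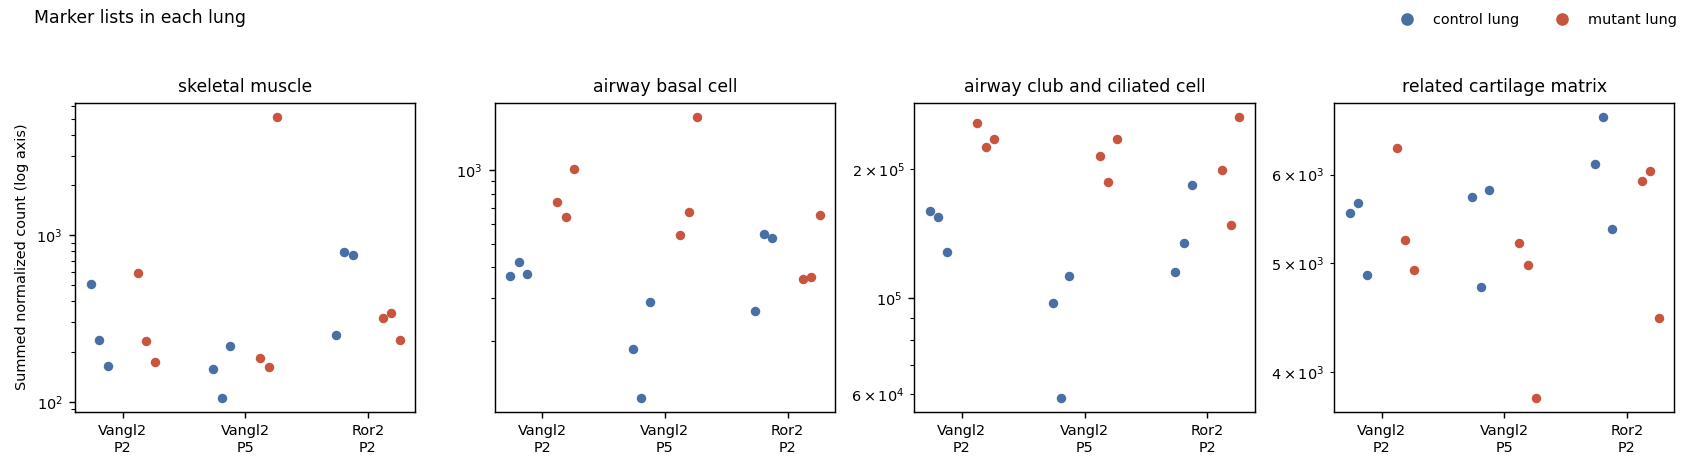
Summed normalized count (log axis) of the skeletal muscle, airway basal cell, club and ciliated cell, and related cartilage matrix lists in each lung of the *Vangl2* P2, *Vangl2* P5 and *Ror2* P2 tables. Mutant 3 of *Vangl2* P5 stands alone in the skeletal muscle list at 5156, and the related cartilage matrix sums of mutants and controls overlap in all 3 tables.

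The matrilins are adaptor proteins that link collagen fibrils to aggrecan and other matrix parts. *Matn3* in the *Ror2* P2 table was at 6.19, 11.95 and 13.97 in controls and 4.51, 4.74 and 0 in mutants. All mutants were below all controls, and mutant 3 had no read. Its log2 fold change was -1.82 (SE 0.74, interval -3.57 to -0.07, unadjusted p = 0.0433, adjusted p = 0.249 by limma), and -0.99 without mutant 3. That lung, which also had 3 reads of *Col2a1*, had a sum of 11 bone and hypertrophic cartilage genes of 614.5. Mutants 1 and 2 of its table had 1444 and 2325 and the controls 2589 to 2692, so all mutants were below all controls. *Phex* was the most abundant of these genes, and the part of this sum in the members' values was not tested. In the other tables *Matn3* overlapped between groups, with log2 fold changes of 0.01, 0.56 and -0.85 for *Vangl2* P2, *Vangl2* P5 and *Ror2* P5. The last was -0.09 without mutant 1, which had 1 read.

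*Matn1* marks tracheal and other mature hyaline cartilage. It had 6 reads in all, with 19 of 24 lungs at 0, and no group held more than 2 reads in a lung. A lung with 0 reads here allows up to 3. No difference between groups was detectable at this depth, and the gene was left out of the main fit. Of the 17 related cartilage matrix genes described further on, 5, named after their values were seen, were also low: *Lect1* (chondromodulin) had at most 12 reads in any lung, *Ucma* 11, *3110079O15Rik* (*Snorc*) 11, *Epyc* 10 and *Clec3a* 11. *Col2a1*, with 3 to 203 reads a lung, and *Chad* and *Fmod* of the related list were higher than *Matn1* and these 5 genes in most lungs. The members with few reads were low too, with medians from 4.5 reads a lung for *Col9a1* to 11 for *Comp*. Their highest lungs held from 15 reads for *Matn3* to 40 for *Acan*. The other genes of the related list are not given one by one, so these genes do not describe the whole list. The whole list summed to 3793 to 6759 normalized counts a lung in the *Vangl2* P2, *Vangl2* P5 and *Ror2* P2 tables. *Fmod*, a gene of tendon as well as cartilage, was its most abundant. How much of the members' signal came from cartilage was not tested.

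The start regions of the member with least signal and of a pair with more are shown here for comparison. RefSeq promoters (mouse, GRCm38.p6) could be matched by symbol for 7 of the 10 members, giving 8 windows of 250 bases before a start, as *Col9a1* has 2 starts in the table. *Col2a1*, *Col9a3* and *Comp* were not matched. The motifs searched, on both strands, were TATAAA (the TATA box), and ACAAT and ACAAAG, which are core letters of sites bound by SOX proteins. TATAAA was in 1 window, that of *Col11a2*, and in 12.4% of all 32851 promoters of that length. ACAAT was in 1 window, that of *Hapln1*, all 250 bases of which lie in an annotated exon (27.7% of all promoters held ACAAT), and ACAAAG in 0 (16.5%). The other 6 windows held none of them. The windows below run 5′ to 3′ on the + strand, at chr17:34038888-34039137 for *Col11a2*, chr12:8947679-8947928 for *Matn3* and chr4:130944135-130944384 for *Matn1*, and capitals mark the TATAAA match. None of the 3 overlaps an annotated exon.
Col11a2: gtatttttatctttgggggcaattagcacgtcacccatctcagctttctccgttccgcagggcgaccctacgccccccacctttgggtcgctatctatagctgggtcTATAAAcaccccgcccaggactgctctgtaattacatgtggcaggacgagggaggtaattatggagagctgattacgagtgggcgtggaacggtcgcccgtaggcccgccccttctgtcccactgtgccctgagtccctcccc
Matn3: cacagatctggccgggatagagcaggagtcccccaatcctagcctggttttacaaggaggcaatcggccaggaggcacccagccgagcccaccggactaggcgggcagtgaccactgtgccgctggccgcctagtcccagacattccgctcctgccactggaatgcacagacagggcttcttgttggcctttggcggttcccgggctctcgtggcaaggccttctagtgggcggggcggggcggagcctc
Matn1: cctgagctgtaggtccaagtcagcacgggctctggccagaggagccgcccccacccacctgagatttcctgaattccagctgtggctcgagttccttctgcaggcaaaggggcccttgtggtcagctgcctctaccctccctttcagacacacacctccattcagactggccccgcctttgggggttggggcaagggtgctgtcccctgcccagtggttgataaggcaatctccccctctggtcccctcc

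In GRCm38 (mm10) the members lie on 9 chromosomes and form no cluster. *Col9a2* at chr4:121039385-121055322 and *Matn1* at chr4:130944385-130955475 share chromosome 4 but lie far apart. *Col2a1* is at chr15:97975602-98004695 on the minus strand, *Col11a2* at chr17:34039437-34066685, *Col9a1* at chr1:24177610-24252684 and *Col9a3* at chr2:180597790-180622189. *Acan* is at chr7:79053483-79115099, *Hapln1* at chr13:89539796-89611652, *Comp* at chr8:70373558-70382066 and *Matn3* at chr12:8947929-8972028. All but *Col2a1* are on the plus strand.

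The members did not move together from lung to lung. Over the 24 lungs (23 for *Acan* and *Comp*), Pearson's r between a member's deviation from its group mean and the mean deviation of the others was 0.473 for *Col2a1* and 0.132 for *Col9a3*. It lay between -0.102 and 0.068 for 7 more members and was -0.268 for *Hapln1*. These lungs share a scaling within each table and the low members have a counting error of 30% to 35%, so the values are a description only. Of 14586 genes, those whose deviations were most like the mean of the members were *Adcy1* (r = 0.749), *Rnf32* (0.739), *Nt5e* (0.72), *1700052N19Rik* (0.713), *Spdef* (0.7), *Dync2h1* (0.698), *Iqcc* (0.695), *Ccdc89* (0.694), *Oxsm* (0.688) and *Chrdl1* (0.684). None of them is in the cartilage lists used here. As the highest of 14586 untested values, their r do not show that they vary with the members.

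Differences between the comparisons were tested as interaction terms, the P5 against the P2 fold change in each genotype and the *Vangl2* against the *Ror2* fold change at each age. By limma 0 of 9 members passed in each, beside 0.0%, 0.0%, 0.0% and 0.0118% of all genes. At an unadjusted p under 0.05, which 8.45% and 9.5% of all genes had for the ages in *Vangl2* and *Ror2* mutants, there were 2 members for the ages in *Vangl2* mutants (*Acan*, above, and *Col9a1* at 2.21, SE 0.97, adjusted p = 0.578) and 1 for the ages in *Ror2* mutants (*Col2a1*, above). There were 0 between the genotypes at P2 and at P5, beside 4.6% and 4.73% of all genes.

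Genes around the members were read from lists. Of 17 related cartilage matrix genes, 14 to 16 were tested per table and 0 passed in any, with median log2 fold changes of 0.21, 0.28, -0.38 and -0.33 in the order *Vangl2* P2, *Vangl2* P5, *Ror2* P2 and *Ror2* P5. Its most abundant gene, *Fmod*, a small proteoglycan of tendon and cartilage, had log2 fold changes of 0.14, -0.76, -0.25 and -0.34. *Chad*, a chondrocyte adhesion protein named after its values were seen, was at 126 to 443 in controls and 601 to 793.5 in mutants of *Vangl2* P5 (1.35, adjusted p = 0.154), and at 90.4 to 182 against 279 to 469 at *Ror2* P5 (1.28, adjusted p = 0.126). Of all genes, 13.2% and 15.6% had all mutants above all controls in these tables. Of the related genes tested there, 9 of 16 and 5 of 14 had a log2 fold change above 0. The list medians were 0.28 and -0.33, so *Chad* does not stand for its list. The P2 values of *Chad* are not given here. Of 13 chondrogenic regulators, which include *Sox9*, 12 were tested and 0 passed, and *Nkx3-2* had no read in any lung. The most abundant of them was *Fgfr3*, a receptor that restrains chondrocyte growth. Of 12 genes of proteoglycan synthesis 0 passed, with *Papss1*, a maker of the sulfate donor, at -0.41 in *Vangl2* P2 (adjusted p = 0.0951). Of 11 bone and hypertrophic cartilage genes, with *Phex* the most abundant, 0 passed.

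Of the lists for other tissues, skeletal muscle (13 genes, *Ckm* the most abundant), cardiac muscle (9, *Actc1*) and club and ciliated cells (8, *Scgb1a1*) had 0 genes past the threshold in any table. In the airway basal list (6 genes, *Krt15* the most abundant) *Aqp3*, a water and glycerol channel of basal cells, passed in *Vangl2* mutants at P2, with 103 to 123 in controls and 218 to 609 in mutants (log2 fold change 1.64, SE 0.34, limma adjusted p = 0.0456). It passed at P5 too, at 20.1 to 46.5 against 211 to 269 (2.99, SE 0.33, adjusted p = 0.0148). With 1 lung left out, *Aqp3* passed in 2 of 6 fits at P2 (without mutant 1 or mutant 3, adjusted p from 0.0178 to 0.171 over the 6) and in 2 of 6 at P5 (without control 1 or control 3, 0.0291 to 0.0744), always higher in mutants. In the alveolar epithelium list (9 genes, *Sftpc* the most abundant), *Sftpa1* and *Hopx* passed in *Vangl2* mutants at P2, at 1.89 (adjusted p = 0.0329) and 0.75 (adjusted p = 0.0436), and with 1 lung left out in 1 of 6 and 2 of 6 fits, with adjusted p up to 0.168 and 0.208. None of the cartilage genes listed here, member or related, passed in the tables where these epithelial genes did.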

How the data were processed

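RNA of left lung lobes was extracted with TRIzol and a column kit and sequenced on Illumina HiSeq instruments. The deposited tables hold per-lung signal: gene counts that the authors divided by a size factor per lung, within each of 4 tables. The submitters' processing notes name mm10 and DESeq2, and the aligner, counter and annotation are not given in the sources used here. The tables also hold the authors' base mean, log2 fold change, its error, statistic and p-values, which were not used. Values were whole multiples of 1 step per lung in 100% of cases (tolerance 0.02 reads), so whole reads were recovered for edgeR and for depth.

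Log2 (normalized count + 1) was fitted with limma (moderated test, empirical Bayes with mean trend, two-sided) within each table of 6 lungs, on genes at 1 or more in at least 3 of them. The p-values were adjusted across every gene that was fitted (Benjamini-Hochberg), at a threshold of 0.05. Levels per kb used exon lengths of the basic set of GENCODE vM21, and the *Tcfl5* overlap used its full set. *Col2a1* has 5104 exon bases in the basic set and 9243 in the full set, so levels per kb and their order depend on this choice. Nothing says that the lungs came from separate litters, and p-values measure the spread between these samples. The genes and lists were chosen with earlier results of these data known. Genes named were all members, the targeted genes, *Sox9* and the 10 genes most like the members. Of each other list, those past the threshold and the most abundant one were named. Some genes outside this rule were named too. *Chad*, *Lect1*, *Ucma*, *Snorc*, *Epyc* and *Clec3a* of the related cartilage matrix list were named after their values were seen. *Papss1* and the chondrogenic regulator without a read also fell outside the rule, as did *Xist*, *Ddx3y* and *Tcfl5*. Counting limits cover counting error only, with 3 reads as the limit for a count of 0.

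Replicate numbers were checked by correlating deviations from group means across genes. In the *Vangl2* P5 table same-numbered lungs gave r of 0.486, 0.471 and 0.29, all over 0.1, so the numbers pair the lungs there as judged from the data. In the other 3 tables the values were not all over 0.1, and a pairing was neither shown nor excluded. In *Ror2* P2 same-numbered lungs gave 0.021, 0.297 and 0.181, against -0.276 to 0.036 for other numbers. Alternatives were a pseudocount of 5, no filter, TMM scaling, edgeR, a replicate block, each lung left out in turn and, for *Ror2* P5, control 1 as deposited. R 4.3.3, limma 3.58.1, edgeR 4.0.16, Python 3.11.15 and scipy 1.17.1 were used.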

Additional observations from a re-analysis of the deposited data

How the results depend on the processing

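Over 454 alternatives for single members, 428 kept the direction and side of the threshold, 25 changed direction and 1 came to pass. In *Vangl2* P2 the log2 fold change of *Matn3*, near 0, was -0.003 with a pseudocount of 5, -0.001 with TMM scaling and -0.045 by edgeR. In *Ror2* P5, with control 1 as deposited, *Acan* was at 0.744 and the median of the members at 0.266. When each lung was left out in turn, *Matn3* in *Vangl2* P2 ranged from -0.199 to 0.25. In *Vangl2* P5 the ranges were -0.131 to 0.614 for *Col2a1*, -0.471 to 0.575 for *Col9a2* and 0.467 to 0.896 for the median. In *Ror2* P2 they were -0.965 to 0.52 for *Col9a1*, -0.098 to 0.305 for *Col9a2*, -0.05 to 0.414 for *Col9a3* and -0.509 to 0.354 for *Hapln1*. In *Ror2* P5 they were -0.616 to 0.136 for *Acan*, -0.154 to 0.047 for *Col9a2*, -0.155 to 0.526 for *Col9a3*, -0.18 to 0.128 for *Col11a2* and -1.005 to 0.101 for *Hapln1*, and the number of members past the threshold ranged from 0 to 1. That 1 was *Col2a1* without mutant 3 (log2 fold change 1.167, limma adjusted p = 0.037). The causes were not tested.

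With the replicate block, 795, 1558, 1 and 1 genes passed over the whole tables of *Vangl2* P2, *Vangl2* P5, *Ror2* P2 and *Ror2* P5, in place of 626, 98, 0 and 21, and 0 members passed in any. edgeR called 641, 69, 0 and 24 genes. Of the 17541 genes of *Ror2* P2, 3380 had an unadjusted limma p under 0.05. Depth limits *Matn1*, *Col9a1*, *Matn3*, *Col9a3*, *Comp* and *Acan*, for which a change of a few reads moves the value.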
